A study of Mus musculus with 7 samples.

Results

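The loci of 10 genes of the contractile cytoskeleton and its transcriptional control were followed in open chromatin while mouse embryonic fibroblasts (MEFs) were reprogrammed. The genes were Acta2, Actg2, Tagln, Cnn1, Myl9, Mylk, Tpm1, Tpm2, Srf and Ccn2, and their peaks were all called ATAC-seq peaks that lay in the gene body or within 20 kb of it. ATAC-seq measures open chromatin through the cuts that Tn5 transposase makes in accessible DNA. Peaks of the 7 libraries that touched or overlapped were merged into regions, which gave 72 regions near the 10 genes out of 104346 in the genome, and the 10 genes were compared with 21853 protein-coding genes. The day 0 library came from untreated MEFs, and the libraries of days 1, 2, 3, 6 and 9 came from the same MEFs kept in doxycycline at 2 µg/ml, which switches on the OKSM transgene (Oct4, Klf4, Sox2 and c-Myc). In the paper's protocol doxycycline was added in medium with more serum than the MEF culture medium. When the first early colonies emerged, which that protocol places between days 6 and 9, that medium was replaced with ESC medium. Effects of doxycycline and serum thus cannot be told apart between day 0 and the later days. On day 9 the effect of the ESC medium cannot be told apart from them either. All MEFs, day 0 included, carried the cassette Col1a1tm1(tetO-Pou5f1,-Klf4,-Sox2,-Myc)Hoch and the activator allele Gt(ROSA)26Sortm1(rtTA*M2)Jae, from a cross of B6;129S4 and B6.Cg mice. The MEFs were isolated from midgestation embryos without head, heart and liver, so each culture could hold several mesenchymal cell types. The last library came from Bruce-4 embryonic stem cells (ESCs), which received no doxycycline, although its genotype entry repeats that of the MEFs. There was 1 library per time-point, so no value below has a replicate error and no test between libraries was possible.

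Serum response factor (SRF) is the transcription factor that binds the CArG box and that controls both the early response of cells to serum and the genes of the actin cytoskeleton. Its partners MRTF-A and MRTF-B are held in the cytoplasm by free actin monomers and enter the nucleus when actin polymerises, which ties contractile genes to cell tension. In fibroblasts and smooth muscle these genes encode actins, actin-binding proteins and the regulators of myosin, and their products build stress fibres.

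The reference sequences below are those on which the comparison between promoter and distal regions turns. A CArG box is CC and GG around 6 bases that are all A or T. A CArG-like box is the same with 1 G or C among the 6. The 2 kinds cannot be the same site, and boxes were searched on both strands. The promoters are from RefSeq (GRCm38.p6, the mm10 build), which had an entry for 7 of the 10 genes and none for Actg2, Ccn2 and Tagln. They are printed on the strand of the gene up to its GENCODE start, and capitals mark CArG and CArG-like boxes. Myl9 (chr2:156775214-156775419, plus strand) and Srf (chr17:46556176-46556412, minus strand) had a start-site peak in all 7 libraries, whereas Cnn1 (chr9:22099003-22099215, plus strand) had none in any.
Myl9 promoter: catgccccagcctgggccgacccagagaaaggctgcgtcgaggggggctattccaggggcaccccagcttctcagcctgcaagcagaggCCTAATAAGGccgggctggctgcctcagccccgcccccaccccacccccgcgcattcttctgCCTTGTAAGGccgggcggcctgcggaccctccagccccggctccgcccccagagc
Cnn1 promoter: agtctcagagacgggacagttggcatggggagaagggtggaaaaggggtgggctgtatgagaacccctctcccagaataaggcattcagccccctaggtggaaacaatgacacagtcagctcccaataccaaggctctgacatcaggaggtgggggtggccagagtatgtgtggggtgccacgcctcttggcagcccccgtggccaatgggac
Srf promoter: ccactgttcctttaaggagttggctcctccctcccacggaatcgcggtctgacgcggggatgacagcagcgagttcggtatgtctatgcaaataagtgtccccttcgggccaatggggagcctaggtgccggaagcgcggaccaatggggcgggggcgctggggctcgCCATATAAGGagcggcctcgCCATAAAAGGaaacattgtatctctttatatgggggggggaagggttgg
Of Acta2, only the bases around its 2 CArG-like boxes (chr19:34255438-34255467 and chr19:34255388-34255417, minus strand) are shown, since GENCODE places the start of a longer transcript before them.
Acta2 site 1: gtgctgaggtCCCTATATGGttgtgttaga
Acta2 site 2: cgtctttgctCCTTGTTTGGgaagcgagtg
The next 3 sequences are taken from the regions outside exons that had a peak on day 0 and on all 5 doxycycline days but none in the ESC library, a group chosen after the values were seen. They are given on the strand of the gene, as up to 300 bases around the middle of the region. Here capitals mark CArG and CArG-like boxes, the AP-1 motif TGACTCA and the TEAD motif GGAATG, on either strand. Their positions are chr19:34265682-34265981 (minus strand), chr16:34967692-34967947 (plus) and chr9:67058448-67058747 (minus).
Acta2 -10.2 kb: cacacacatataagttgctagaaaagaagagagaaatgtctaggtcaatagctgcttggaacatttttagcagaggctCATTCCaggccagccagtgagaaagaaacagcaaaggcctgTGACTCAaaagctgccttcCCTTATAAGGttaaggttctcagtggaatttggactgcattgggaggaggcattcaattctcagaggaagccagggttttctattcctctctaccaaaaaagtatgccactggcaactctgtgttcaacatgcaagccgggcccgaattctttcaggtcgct
Mylk 223.0 kb: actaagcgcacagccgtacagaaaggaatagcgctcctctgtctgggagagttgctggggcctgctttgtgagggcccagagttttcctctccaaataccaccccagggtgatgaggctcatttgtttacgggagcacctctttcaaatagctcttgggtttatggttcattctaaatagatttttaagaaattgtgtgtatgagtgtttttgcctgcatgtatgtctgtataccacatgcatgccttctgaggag
Tpm1 -9.19 kb: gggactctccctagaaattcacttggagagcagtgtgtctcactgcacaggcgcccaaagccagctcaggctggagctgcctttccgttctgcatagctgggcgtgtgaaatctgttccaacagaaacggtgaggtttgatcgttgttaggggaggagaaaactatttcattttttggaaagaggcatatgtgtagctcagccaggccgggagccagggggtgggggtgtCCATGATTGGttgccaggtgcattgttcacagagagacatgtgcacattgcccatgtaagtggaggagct
The Acta2 region held a CArG box, an AP-1 motif and a TEAD motif, and the Tpm1 region a CArG-like box. None of the motifs searched was found in the Mylk region.

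The number of peaks near the 10 genes was highest on day 0 and lowest in the ESC library. Day 0 had 53, days 1, 2, 3, 6 and 9 had 31, 28, 36, 39 and 33, and the ESC library had 14. Among the doxycycline days the count was lowest on day 2 and highest on day 6, an order that changed with the width of the peaks counted. The number of peaks near these genes in the ESC library was 26.4% of that on day 0, against 44.2% for the number of all peaks, and on day 1 it was 58.5%, against 74.6%. On day 6 the corresponding values were 73.6% and 73.2%, and on day 9 they were 62.3% and 53.9%. Mylk, whose body spans 257211 bp, gave 16 of the 53 day 0 peaks, and without it the number was 32.4% of day 0 in the ESC library and 62.2% on day 1. These are ratios of counts and do not say that the peaks lay in the same places. Set against the size of each list, the peaks near the 10 genes came to 0.865 per 1000 on day 0, to 0.678, 0.844, 0.749, 0.869 and 1.0 on the 5 doxycycline days and to 0.517 in the ESC library. The 27074 widest peaks of each library were also counted, which equalises the length of the lists but not their widths. The ESC list stays whole in this count, while the other lists lose their narrowest peaks. Day 0 then had 27 peaks near the 10 genes, the doxycycline days had 24, 28, 20, 25 and 27, and the ESC library had 14. Of the doxycycline days, day 2 was thus the highest and day 3 the lowest.

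The lists differed in length before any gene was considered, from 61241 peaks on day 0 to 27074 in the ESC library, with 33174 on day 2 and 33007 on day 9. The authors had downsampled all libraries to the same depth, whose value is not given in the sources used here, and the lists hold no score, so a region without a peak was not detected as open and is not shown to be closed. A change in the mixture of cells and a change of accessibility in each cell cannot be told apart in such bulk libraries. Of 11 fibroblast markers, those with a peak at the start site were 10 on day 0, then 9, 8, 9, 8 and 7 over the doxycycline days, and 4 in the ESC library. Of 10 pluripotency markers, 5 had one on day 0 and 2 in the ESC library (Pou5f1 and Zfp42), with 1 to 4 between, so start-site peaks did not mark the ESC library by this list. Of 4 vascular smooth muscle markers, 3 had a start-site peak on day 0, 1 to 3 on the doxycycline days and 2 in the ESC library, and the 4 endothelial markers gave 4, 1 to 2 and 1. The part of these other cell types in the values of the 10 genes was not tested.

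**Figure D1:**
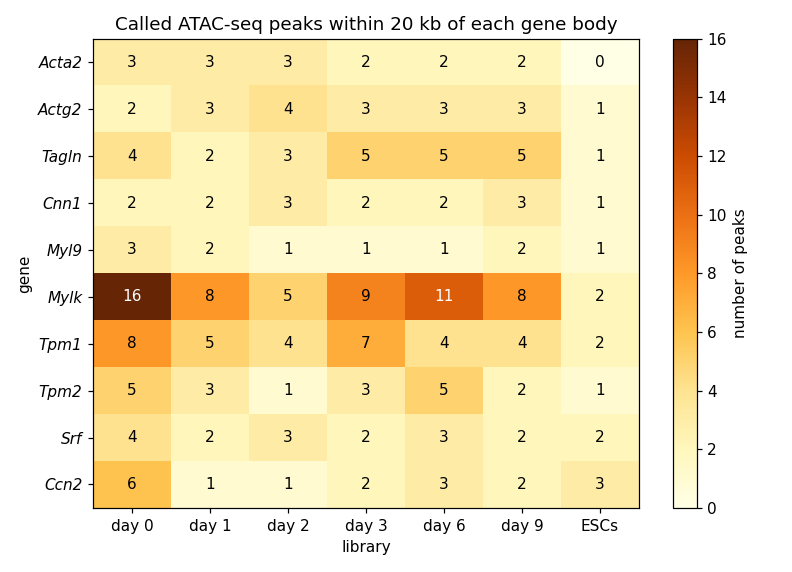
Number of called peaks in the gene body or within 20 kb of it for each of the 10 genes (rows) in each library (columns), with darker cells for more peaks. Mylk has the most peaks in every library but the ESC library, where Ccn2 has 3, and Acta2 has 0 in the ESC library.

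All 10 genes had fewer peaks in the ESC library than on day 0, against a background of 73.3% of the 17555 protein-coding genes with a day 0 peak. On day 1, 7 of the 10 had fewer (background 54.5%), Acta2 and Cnn1 had as many, and Actg2 had more. The 10 genes had 2 to 16 peaks each on day 0, whereas the background includes every gene with at least 1. A gene with more peaks has more room to fall, so these shares are not directly comparable. Acta2 was the single member with no peak in the ESC library, a state found in 13.4% of those 17555 genes. The plot of peak numbers by gene and library shows that the genes did not share a common course between day 0 and the ESC library. A peak within 1 kb of the start of any protein-coding transcript, called a start-site peak here, was present at 8 of the 10 genes on day 0, at 7, 5, 7, 8 and 7 of them on days 1, 2, 3, 6 and 9, and at 4 in the ESC library. The same share over all protein-coding genes was 58.4, 54.5, 50.5, 55.1, 56.2, 52.3 and 49.2%. The genes that had a start-site peak on day 0 and none in the ESC library were Acta2, Tagln, Tpm2 and Mylk, or 4 of 8, against 20.3% of all protein-coding genes with a day 0 start-site peak. Mylk counts here by its protein-coding start, while the region at its 5' end had a peak on day 0 and in the ESC library. With the gene's 5' end alone, 8 of the 10 had a peak on day 0 and 5 in the ESC library. With so few genes the difference from the background was not tested.

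Acta2 (ENSMUSG00000035783.9, chr19:34241090-34255590, minus strand) encodes the alpha actin of smooth muscle, which is also the customary marker of myofibroblasts. Its start region (chr19:34254334-34255861), which overlaps an exon and UTR of the gene, was covered by called peaks over 813 bp on day 0 and over 951, 1057, 879, 1513 and 798 bp on days 1, 2, 3, 6 and 9, and by none in the ESC library. The start thus had a peak in every MEF-derived library, and the widest coverage was on day 6. A second region at -10.2 kb from the gene's 5' end (chr19:34265438-34266224), outside any annotated gene, had the same pattern, with 511, 637, 634, 627, 689 and 503 bp from day 0 to day 9 and none in the ESC library. A start-site peak on day 0 and all doxycycline days with none in the ESC library was found for 7.17% of the protein-coding genes with a day 0 start-site peak. The remaining Acta2 regions were narrow or brief, a 200 bp peak at 15.0 kb on day 0 alone and a 412 bp peak at 11.4 kb on day 1 alone. The letters of the Acta2 promoter held no CArG box and the 2 CArG-like boxes printed above, and the -10.2 kb region held a full box.

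Actg2 (ENSMUSG00000059430.14, chr6:83512905-83536265, minus strand) encodes the gamma actin of enteric smooth muscle. Its start region (chr6:83536079-83536898) had no peak on day 0, then covered 473, 636, 666, 584 and 753 bp on days 1, 2, 3, 6 and 9, and had no peak in the ESC library. Actg2 was the single member with a start-site peak on every doxycycline day and neither before nor in the ESC library. That pattern was found for 0.539% of the 9098 protein-coding genes without a day 0 start-site peak. A region at -5.87 kb, named after its values were seen, already had a peak on day 0 (383 bp), and it measured 484, 584, 454 and 364 bp on days 1, 2, 3 and 6, with none on day 9 or in the ESC library. The upstream region of Actg2 thus had a called peak on day 0 while its start had none, and in the day 9 library the reverse was seen. The single Actg2 peak of the ESC library lay at 29.5 kb over the start of Dguok, where all 7 libraries had a peak.

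**Figure D2:**
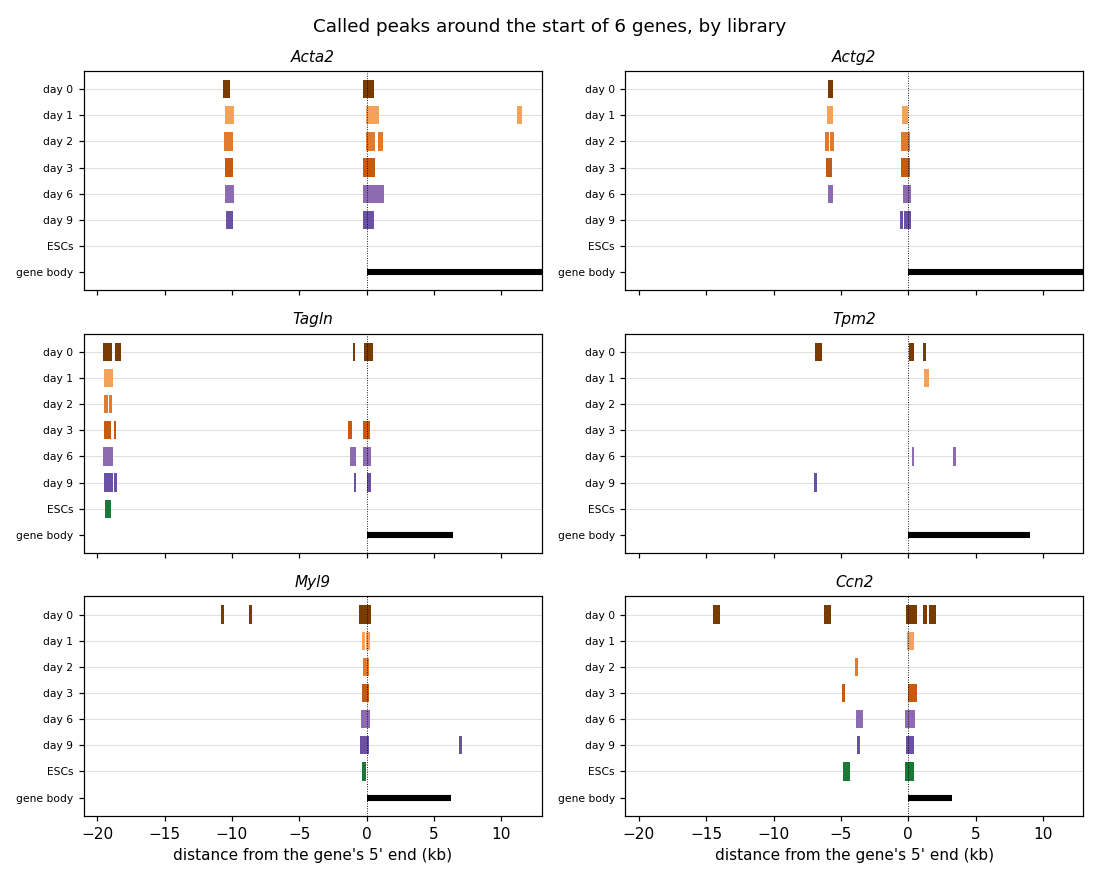
Called peaks (coloured bars, drawn to scale) around the 5' end of Acta2, Actg2, Tagln, Tpm2, Myl9 and Ccn2 in the 7 libraries, by distance in kb in the direction of transcription, with the gene body in black. The start of Actg2 has peaks on days 1 to 9, that of Tagln lacks them on days 1 and 2, and that of Myl9 has a peak in all 7 libraries.

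Tagln (ENSMUSG00000032085.5, chr9:45929619-45936058, minus strand) encodes transgelin, an actin-binding protein of smooth muscle also called SM22 alpha. Its start region (chr9:45935614-45936359) covered 649 bp on day 0, had no peak on day 1 or day 2, and covered 485, 626 and 230 bp on days 3, 6 and 9. The ESC library had no peak there. The neighbouring region at -1.06 kb (chr9:45936826-45937403) followed the same course, with 211 bp on day 0, none on days 1 and 2, then 266, 439 and 200 bp. Both regions were therefore without a peak on the same 2 days, and the return on day 6 was about as wide as day 0 at the start region. This course from day 0 to day 9, singled out after its values were seen, was found for 0.674% of the protein-coding genes with a day 0 start-site peak. That share takes no account of the ESC library. A region at 15.6 kb (chr9:45919974-45920892), in an intron of the neighbouring gene Pcsk7, behaved differently, with no peak on day 0 or in the ESC library and 786, 719, 753, 758 and 856 bp on days 1, 2, 3, 6 and 9. On days 1 and 2 the 15.6 kb region was thus open while the Tagln start had no peak, and whether this region acts on Tagln or Pcsk7 was not tested. The single peak of the ESC library near Tagln was at the start of Sidt2 (-19.2 kb), where all 7 libraries had a peak.

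Cnn1 (ENSMUSG00000001349.5, chr9:22099216-22109630, plus strand) encodes calponin, an inhibitor of the actomyosin ATPase. No library had a start-site peak at Cnn1, as for 36.1% of all protein-coding genes. Its peaks numbered 2 on day 0, then 2, 3, 2, 2 and 3 with doxycycline, and 1 in the ESC library, so Cnn1 was flanked by peaks in every library although its start had none. The Cnn1 promoter printed above held none of the 6 motifs searched. The peaks shared by all 7 libraries near Cnn1 were at -13.8 kb, over the start of Ecsit.

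Tropomyosins lie along the actin filament and govern the access of myosin. Tpm1 (ENSMUSG00000032366.15, chr9:67022590-67049406, minus strand) kept peaks at both of its start-site regions in all 7 libraries. The first start (chr9:67049015-67049760) covered 746 bp on day 0, then 661, 633, 685, 655 and 560 bp with doxycycline, and 200 bp in the ESC library. The internal start at 5.53 kb (chr9:67043499-67044259) covered 618, 642, 496, 551, 678, 665 and 464 bp in the same order, so the ESC value was the lowest at both and lower at the first start. The region at -9.19 kb (chr9:67058260-67058935) was open on day 0 (533 bp) and on days 1, 2, 3, 6 and 9 (380, 535, 561, 561 and 596 bp) and had no ESC peak. A region downstream of the gene, at 36.8 kb, had peaks on days 2, 3, 6 and 9 alone, of 215, 432, 200 and 356 bp. Tpm2 (ENSMUSG00000028464.16, chr4:43514711-43523765, minus strand) had a much less regular start. Its start region (chr4:43523313-43523748) had a peak of 436 bp on day 0, one of 200 bp on day 6 and none elsewhere, and the region at 1.32 kb had peaks on days 0 and 1 alone (207 and 346 bp). The 2 tropomyosin genes thus differed in the ESC library, where Tpm1 kept 2 peaks, both at starts, and the single Tpm2 peak lay at the start of Arhgef39 (24.1 kb).

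Myl9 (ENSMUSG00000067818.6, chr2:156775420-156781658, plus strand) encodes the regulatory light chain of smooth muscle and nonmuscle myosin, whose phosphorylation starts contraction. Its start region (chr2:156774889-156775710) had a peak in all 7 libraries, of 822 bp on day 0 and 533, 439, 532, 694 and 667 bp on days 1, 2, 3, 6 and 9. The ESC library had the narrowest coverage, 291 bp. The other 3 Myl9 regions were peaks of 200 bp, the smallest width in the lists, each seen in 1 library. Myl9, Tpm1 and Srf were the 3 members with a start-site peak in all 7 libraries, a pattern of 41.7% of all protein-coding genes.

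Mylk (ENSMUSG00000022836.11, chr16:34745210-35002420, plus strand) encodes the kinase that phosphorylates that light chain, and its long body held 23 of the 72 regions. Its peaks numbered 16 on day 0, then 8, 5, 9, 11 and 8 with doxycycline, and 2 in the ESC library. The region at the 5' end of the gene (chr16:34744898-34745507), where the annotated transcript is not protein-coding, covered 541 bp on day 0, 412, 539, 557 and 387 bp on days 1, 3, 6 and 9 and 234 bp in the ESC library, and had no peak on day 2. By contrast, the protein-coding start at 39.7 kb (chr16:34784639-34785083) had a peak of 445 bp on day 0 and none in any other library, as 3.12% of the protein-coding genes with a day 0 start-site peak did. The RefSeq promoter of Mylk lies inside that region and held an AP-1 motif and a TEAD motif. Inside the gene, a region at 197.0 kb (chr16:34941713-34942355) had no peak on day 0 and 320, 379, 301, 445 and 492 bp on days 1, 2, 3, 6 and 9, and one at 240.0 kb covered 597, 253 and 261 bp on days 1, 2 and 6. Neither had an ESC peak. The narrow region at 223.0 kb was covered over 201 to 243 bp in all 6 MEF-derived libraries. The Mylk locus therefore held a start with a peak on day 0 alone, an intron region seen on doxycycline days alone and a region seen in every MEF-derived library.

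Srf (ENSMUSG00000015605.6, chr17:46548329-46556175, minus strand) encodes the factor itself and is among its own known targets. Its start region (chr17:46555870-46556643) covered 774 bp on day 0, then 618, 546, 634, 655 and 682 bp with doxycycline, and 687 bp in the ESC library. The ESC coverage thus lay within the range of the other libraries, which was not so at Myl9 or Tpm1. A region in an intron at 3.07 kb (chr17:46552663-46553547) was also open in all 7 libraries, with 614, 672, 418, 631, 649 and 781 bp from day 0 to day 9 and 247 bp in the ESC library. The Srf promoter printed above held 2 CArG boxes a few bases apart and an octamer (ATGCAAAT, the motif of Oct4 and its relatives). The widest region of the whole set that was seen on day 0 alone was near Srf, 604 bp at -18.5 kb in the body of Ptk7.

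Ccn2 (ENSMUSG00000019997.11, chr10:24595442-24598683, plus strand) encodes a secreted matricellular protein, connective tissue growth factor, which is induced by TGF-beta and is a customary target of YAP and TEAD. It was the single member with regions that had a peak in the ESC library and none on day 0. Its start region (chr10:24595216-24596104) covered 826 bp on day 0, 534, 653, 693 and 580 bp on days 1, 3, 6 and 9 and 642 bp in the ESC library, with no peak on day 2. The number of peaks near Ccn2 was 6 on day 0, then 1, 1, 2, 3 and 2 with doxycycline, and 3 in the ESC library. Of the 9 Ccn2 regions, 4 were seen on day 0 alone, the widest of 578 bp at 1.78 kb over an exon and UTR. The ESC peaks were 642 bp at the start, 517 bp at -4.63 kb (chr10:24590534-24591093, with 236 bp on day 3) and 461 bp at 20.6 kb (chr10:24615799-24616259, in no other library). A region at -3.67 kb, close to the -4.63 kb region, had peaks on days 2, 6 and 9, of 231, 495 and 200 bp. The regions around Ccn2 thus differed from library to library while its start had a peak in all but day 2.

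**Figure D3:**
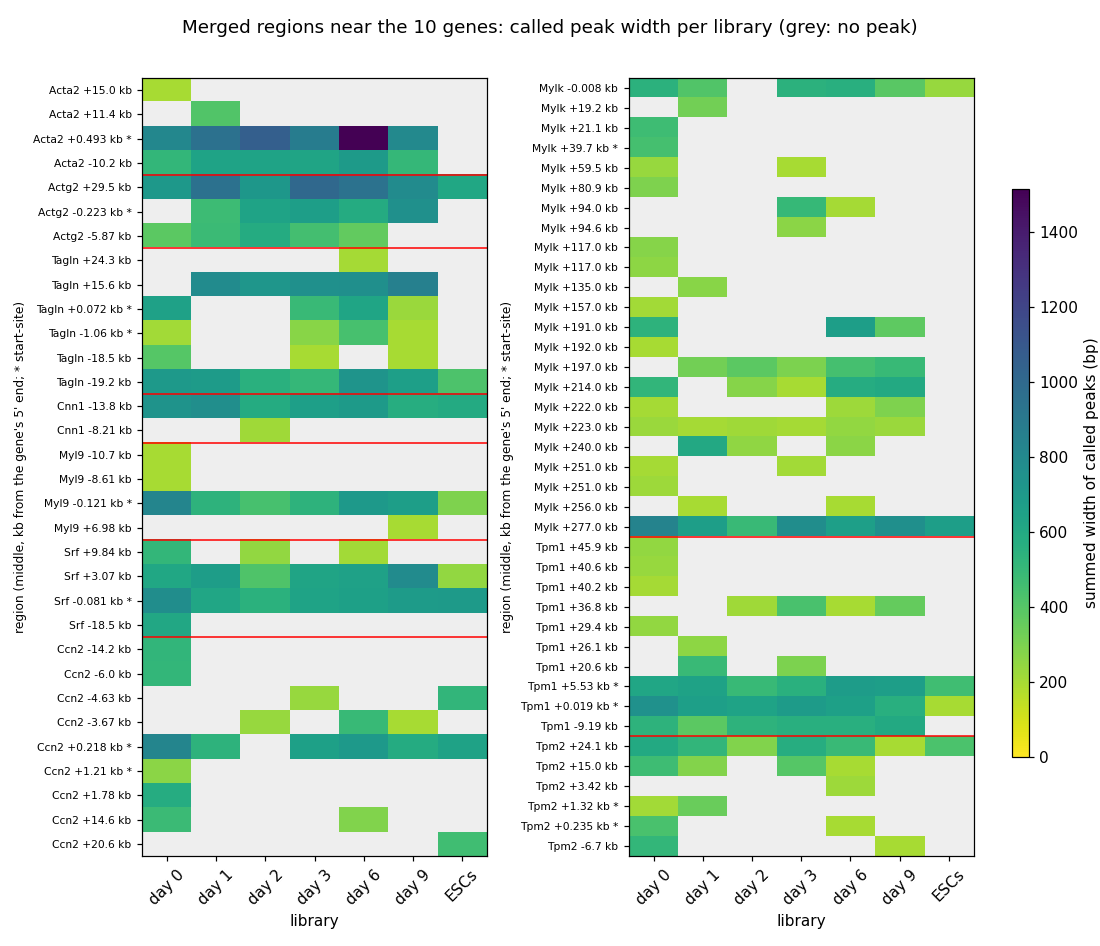
Summed width in bp of the called peaks (colour scale, grey for no peak) in the merged regions near the 10 genes (rows, by gene and distance of the middle from the gene's 5' end in kb, with an asterisk for start-site regions) in each library (columns). Of the regions, 10 are filled in all 7 columns and 20 in the day 0 column alone.

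Across all 72 regions, most of the day 0 regions had no ESC peak, and few regions were gained in the ESC library. A peak on day 0 and none in the ESC library was found for 40 regions (55.6%, exact 95% interval 43.4 to 67.3), against 44.3% of all regions. These intervals are Clopper-Pearson intervals that cover counting error only, and regions of a locus are not independent of each other. Day 0 alone accounted for 20 regions (27.8%, 17.9 to 39.6), against 23.9% of all regions. Their median width was 251.5 bp, and 14 of the 20 were under 300 bp. Transient regions, with a peak on at least 1 doxycycline day and neither on day 0 nor in the ESC library, numbered 18 (25.0%, 15.5 to 36.6), against 30.7%. A peak in all 7 libraries was found for 10 regions (13.9%, 6.87 to 24.1), against 9.75%. These shares of the 10 loci included the value for all regions within their intervals. Regions with an ESC peak and none on day 0 numbered 2 (2.78%, 0.338 to 9.68), both at Ccn2, against 12.9% of all regions, a value above the interval. Without Mylk they were 2 of 49 (4.08%, 0.498 to 14.0). The share was still below 12.9%, but the interval, wider with fewer regions, then included that value. Regions with peaks on day 0 and all 5 doxycycline days but not in the ESC library numbered 5 (background 4.99%), and those with a peak on all 5 doxycycline days alone numbered 3 (background 2.84%), namely the Actg2 start, the Tagln 15.6 kb region and the Mylk 197.0 kb region.

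Of the 52 regions near the 10 genes with a day 0 peak, 20 had a peak on day 1 (38.5%, exact 95% interval 25.3 to 53.0) and 18 had one on day 2 (34.6%, 22.0 to 49.1). Day 3 had a peak in 25 (48.1%, 34.0 to 62.4), day 6 in 27 (51.9%, 37.6 to 66.0) and day 9 in 24 (46.2%, 32.2 to 60.5). The ESC library had one in 12 (23.1%, 12.5 to 36.8). Over all 58856 regions with a day 0 peak, the share without a peak was 55.3, 65.2, 54.7, 56.4 and 65.3% over the doxycycline days and 78.6% in the ESC library, and the share with one in the 6 libraries was 44.7, 34.8, 45.3, 43.6, 34.7 and 21.4%. All 6 intervals of the 10 loci included the value over all regions, so a difference from the genome was not detectable with 52 regions. The point values were below the genome on days 1 and 2 and above it on days 3, 6 and 9 and in the ESC library. Without Mylk they were 47.2, 41.7, 52.8, 58.3, 50.0 and 27.8%, above the genome in all 6 libraries, so the lower value of days 1 and 2 rested on Mylk.

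**Figure D4:**
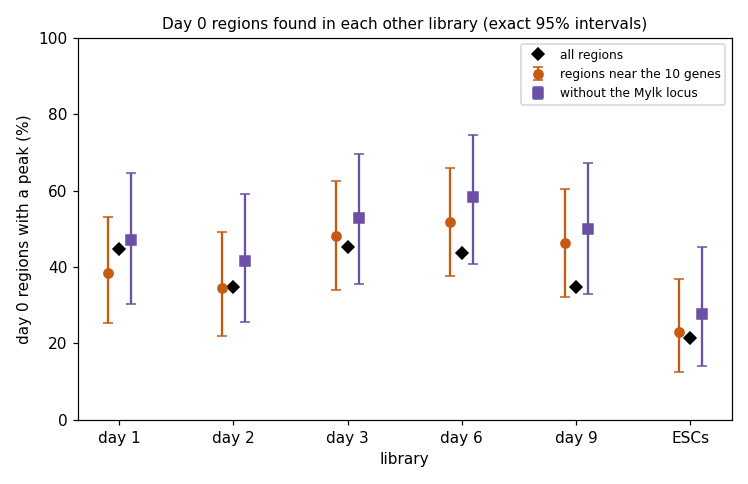
Share (%) of regions with a day 0 peak that have a peak in each other library, for the 52 regions near the 10 genes (circles), for the 36 regions without the Mylk locus (squares), both with exact 95% intervals, and for all 58856 regions (diamonds). The diamonds lie within the bars of the circles in all 6 libraries, and the lowest circle is the ESC library at 23.1%.

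Regions at a start site shared a peak between day 0 and the ESC library more often than distal regions, near the 10 genes as over all regions, and this was not tested. Of the 12 start-site regions of the 10 genes with a day 0 peak, 5 had an ESC peak (41.7%), against 68.5% of all regions within 1 kb of a protein-coding start. Of the 7 regions that lay at the start of another gene, such as Dguok, Sidt2, Ecsit, Arhgef39 and Hacd2, all had a day 0 peak and 5 an ESC peak. Of the 33 day 0 regions away from every protein-coding start, 2 had an ESC peak (6.06%), against 7.33% of all regions that were not at a start. Read from the ESC side, 14 regions near the 10 genes had an ESC peak, and of these 12 had a peak on day 0 and 12, 10, 13, 12 and 12 on the doxycycline days. Of these 14, 5 were start-site regions of the 10 genes and 5 lay at the start of another gene. Over all 26055 ESC regions, 10390 lay within 1 kb of a protein-coding start, so the 2 sets differ in composition and their shares are not directly comparable. Over all ESC regions the share was 48.3% for day 0 and 50.5, 47.3, 53.3, 53.7 and 50.2% for the doxycycline days. Peaks near the 10 genes were also wider than the typical peak in all libraries but day 9, with medians of 471, 485, 407.5, 491.0, 495, 387 and 462.5 bp from day 0 to the ESC library against 380, 375, 364.0, 394, 391, 389 and 385.0 bp over all peaks.

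Motifs were searched in the 300 bases around the middle of each region, on both strands, and matches of different motifs may share bases. A CArG box was present in 5 of the 72 regions (6.94%, exact 95% interval 2.29 to 15.5), against 1.69% of all 104248 regions searched and 1.63% of 32851 RefSeq promoters. The 5 were the start regions of Tagln, Myl9 and Srf, the Acta2 region at -10.2 kb and a Mylk region at 214.0 kb. The 10 genes are a set known for SRF control, so these boxes describe the set and are no independent evidence about it. None of the 20 regions seen on day 0 alone and none of the 18 transient regions held a CArG box, against 1.74% and 1.86% of all regions of these patterns, shares at which few or no matches would be counted among so few regions. CArG-like boxes were found in 10 regions (13.9%, 6.87 to 24.1), against 8.5%. Over the whole length of each region, 9 of the 72 held a CArG box (12.5%), against 2.42% of all regions. The 2 CArG-like boxes of the Acta2 promoter lay outside the 300 bases searched, so its start region counts here as without a box. The 4 regions below all held a box in the 300 bases, so they cannot show whether a box separates the patterns over time. Their own patterns differed. The starts of Myl9 and Srf, with boxes, had a peak in all 7 libraries, the start of Tagln, also with a box, lacked one on days 1 and 2 and in the ESC library, and the Acta2 -10.2 kb region lacked one in the ESC library.

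The AP-1 motif TGACTCA, which reads TGAGTCA on the other strand and is bound by Fos and Jun proteins, was present in 17 of the 72 regions (23.6%, 14.4 to 35.1), against 17.3% of all regions. It was held by 9 of the 20 regions seen on day 0 alone, against 26.0% of all such regions, by 2 of the 18 transient regions, against 12.0%, and by 0 of the 10 regions open in all 7 libraries, against 6.11%. Of the 5 regions with peaks on day 0 and all doxycycline days but not in the ESC library, 3 held it, against 26.9%. The AP-1 motif was thus less frequent in the transient and the all-library regions than in these 2 groups of day 0 regions, near the 10 genes as over all regions, and these shares were not tested. The TEAD motif GGAATG, which reads CATTCC on the other strand and is bound by the partners of YAP, was present in 15 regions (20.8%, 12.2 to 32.0), against 21.3%. The KLF motif CCACACCC was present in 3 regions (4.17%, 0.868 to 11.7), against 5.01%, and the octamer ATGCAAAT in 4 (5.56%, 1.53 to 13.6), against 3.19%. For AP-1, TEAD, KLF and the octamer the interval of the 10 loci included the value over all regions.

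The other genes of the pathway were taken from 5 lists of 61 genes in all. Of these, 54 had a start-site peak on day 0, and 12 of the 54 had none in the ESC library (22.2%), against 20.3% of all protein-coding genes with a day 0 start-site peak. A start-site peak in the ESC library and none on day 0 was found for 2 genes. They were Myl12b, a light chain of nonmuscle myosin, and Myocd, the cofactor of SRF in heart and smooth muscle. Over all protein-coding genes without a day 0 start-site peak the share was 6.5%. The matching base for the 2 genes is the few listed genes without a day 0 start-site peak (61 less 54), not all 61. Among 16 further genes of actin and myosin, the number with a start-site peak was 11 on day 0, 12, 9, 12, 11 and 11 on days 1, 2, 3, 6 and 9, and 11 in the ESC library, where Tpm4, a tropomyosin, was the single loss. Of 15 focal adhesion genes and actin linkers, 15 had one on day 0, 13, 13, 15, 14 and 13 on the doxycycline days and 10 in the ESC library. The 5 without an ESC peak were Flna, which crosslinks actin filaments, Fhl1, Tgfb1i1, a focal adhesion adaptor also called Hic-5, Synpo2, and Lmod1, an actin nucleator of smooth muscle. Of the 11 cofactors and regulators of SRF, 10 had a start-site peak on day 0 and 10 in the ESC library, with Elk3 lost and Myocd gained. The 8 immediate early SRF targets all had one from day 0 to day 6, 7 had one on day 9 and 6 in the ESC library, where Junb and Ier2 lacked it. Of 11 YAP and TEAD targets and factors, 10 had one on day 0 and 7 in the ESC library, where Ajuba, Axl and Tead2 lacked it. Beside these lists, the 10 contractile and SRF loci showed 4 losses among 8 genes, with Mylk counted by its protein-coding start. No test of the difference was made.

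**Figure D5:**
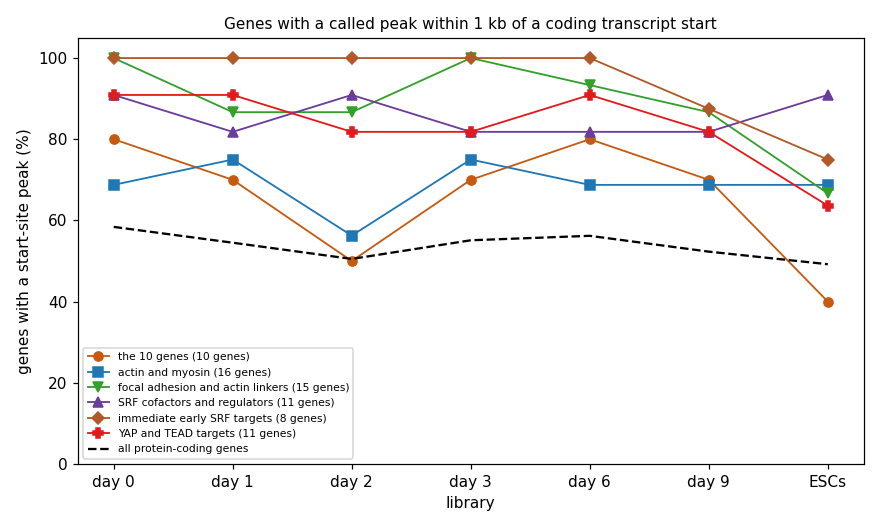
Share (%) of genes with a called peak within 1 kb of a protein-coding transcript start in each library, for the 10 genes, the 5 other lists and all protein-coding genes (dashed line). The 10 genes go from 8 of 10 on day 0 to 4 of 10 in the ESC library, while the 11 cofactors and regulators of SRF have 10 at both.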

How the data were processed

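ATAC-seq was analysed in 7 mouse libraries, grouped by the time-point in their titles, 1 per time-point. After trimming (Trimmomatic) and alignment to mm10 (Bowtie2), the authors ran SAMtools fixmate, dropped duplicates with Picard, brought every library to a common depth and ran MACS2 on each alone. The deposited files give peak positions only, without score or reads, so depth and precision per peak are unknown.

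Peaks were joined to GENCODE M21 genes with Python 3.11.15 and numpy 2.4.6. A peak counted at an overlap of at least 1 bp, checked against BEDTools 2.31.1. Intervals came from scipy 1.17.1, and figures from matplotlib 3.10.9. The code was tested on simulated data, where 100.0% of 2000 planted peak patterns and of 500 planted motifs were recovered. The simulated sites were well separated and the motifs sat in simple repeated sequence. Split or adjacent peaks, which the real lists hold, were not simulated. No chromosome of the 21 compared had a peak past the end of the reference sequence. Positions count from 1, and distances run from the gene's 5' end to the middle of a region. Widths are those of called peaks summed within a region.

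The 10 genes and all lists were chosen with earlier results of these data known. All 10 genes were named. Of their regions, those named by rule were start-site regions, regions with a peak in all 7 libraries, the widest region seen on day 0 alone, regions with peaks on at least 3 of the 5 doxycycline days and neither on day 0 nor in ESCs, and regions with an ESC and no day 0 peak. Other regions were named after their values were seen. An item withheld from the text is not reported here, though it is part of the counts. Of the lists, genes that lost or gained a start-site peak between day 0 and ESCs were named, and the 5 genes most alike in peak numbers. No p-value was computed, since each time-point has 1 library. Alternatives varied the flank (5 and 50 kb), the peak width, the start window, the merging and overlap of peaks and the assignment to the nearest gene. A CArG box with 1 G or C, the set without Mylk and the set without days 2 and 9 were added after the data were seen.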

Additional observations from a re-analysis of the deposited data

How the results depend on the processing

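Of 179 values under an alternative, 131 stayed within 1.5 times the reported count or inside its interval, and 48 moved. ESCs had the fewest peaks near the 10 genes in each of the 6 settings tried for this count, while day 0 had the most in all but that of equal numbers of widest peaks. The share of day 0 regions found was lowest in ESCs and higher on day 6 than on day 1 in each setting tried. ESCs had the fewest start-site peaks except when the gene's 5' end alone counted, where day 2 and ESCs both had 5. Day 6 had the most peaks of the doxycycline days except with peaks at least 300 bp wide, where days 1 and 6 both had 24, and with equal numbers of widest peaks, where day 2 had 28. Other flanks and shorter peak lists change the counts by construction. With a flank of 5 kb, peaks near the genes came to 32, 15, 21 and 25 on days 0, 2, 3 and 6 and to 8 in ESCs, and regions numbered 5 in all 7 libraries, 12 on day 0 alone, 25 on day 0 but not in ESCs and 1 in ESCs but not on day 0. With a flank of 50 kb, peaks numbered 92, 62, 53, 64, 69, 55 and 31 from day 0 to ESCs, and regions 19, 35, 66, 38 (transient) and 7 in the same order of patterns. With peaks at least 300 bp wide, they came to 32, 17, 22, 24 and 19 on days 0, 2, 3, 6 and 9, and regions 5 in all 7 libraries, 12 on day 0 alone and 24 on day 0 but not in ESCs, while losses between day 0 and ESCs were 3 for actin and myosin, 2 for the cofactors and regulators of SRF and 4 for immediate early targets. With the 27074 widest peaks of each library, they came to 27, 20 and 25 on days 0, 3 and 6, the share of day 0 regions found was 55.6, 66.7 and 63.0% on days 2, 6 and 9 and 44.4% in ESCs, and regions numbered 7 on day 0 alone and 15 on day 0 but not in ESCs. With peaks given to the nearest gene alone, day 2 had 17 and ESCs 9, and 5 regions were in all 7 libraries. Without Mylk, regions numbered 12 on day 0 alone, 26 on day 0 but not in ESCs and 11 transient. With 1 G or C allowed, 19.4% of regions held a CArG box. Over all regions, 1.69% held a CArG box and 8.5% a CArG-like box, and the share with either was not counted. No paired analysis was possible because the libraries number 1 per time-point, and for the same reason no replicate could be left out. Depth is not known, so a peak below the calling threshold cannot be told from an absent one.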

Other observations

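The genes whose peak numbers over the 7 libraries were most like the summed numbers of the 10 genes were sought among 8715 protein-coding genes with at least 4 peaks within 20 kb on day 0. They were Rxra, a nuclear receptor for retinoids (Pearson's r = 0.993), Nsmaf (0.992), Adamts6, a secreted protease (0.989), Ppp1r12c, a targeting subunit of myosin phosphatase (0.989), and Syne3, a nesprin of the nuclear envelope (0.983). Rxra had 13, 7, 6, 9, 10, 8 and 2 peaks in the order of day 0, the 5 doxycycline days and ESCs, and Ppp1r12c had 7, 4, 4, 5, 5, 4 and 2. All points share their libraries and so the differing length of the 7 lists. The median r over the genes compared was 0.690, and 706 genes were above 0.9, so a high value alone describes many genes.

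Peak numbers within 20 kb were lower in ESCs than on day 0 in each of the 5 other lists, going from 77 to 40 for actin and myosin, 113 to 46 for focal adhesion genes, 104 to 39 for the cofactors and regulators of SRF, 51 to 30 for the immediate early targets and 70 to 35 for YAP and TEAD targets, beside 53 to 14 for the 10 genes and 61241 to 27074 for all peaks. Within the first list, the start-site peak of Tpm4 was called in all 6 MEF-derived libraries and not in ESCs, as at Acta2, and that of Myl12b was called in 5 libraries, all but days 0 and 2.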
